A study of Homo sapiens and Mus musculus with 99 samples.

Results

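The 5 genes described here carry the transcriptional side of the integrated stress response, and they were followed across lung epithelial cells exposed to a fungal extract or to proteins that open pores in membranes. The members were ATF4, ATF3, DDIT3, TRIB3 and CHAC1, taken by symbol from the human count tables, and the mouse genes Atf4, Atf3, Ddit3, Trib3 and Chac1, taken by gene ID from the mouse tables. They are 5 of 57820 human gene IDs and 5 of 55401 mouse gene IDs. All 10 passed the filter on low counts in every experiment of their species.

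The libraries came from NCI-H1437 and NCI-H292, 2 established human lung cancer lines of epithelial type, 4 h after treatment (51 libraries), and from epithelial cells of mouse lungs 6 h after intranasal treatment (48 libraries). Cells or mice received ALT, the extract of a mould, Alternaria alternata, which is labelled WT ALT where it stands beside extracts labelled aegs KO ALT and aegl KO ALT; Aeg-S or Aeg-L protein by itself, or both as Aeg-S/L; and the pore-forming proteins Lysenin, PlyA2EryB and LSL. Some human cells had a second agent beside the stimulus: BAPTA-AM, which binds calcium inside cells, EGTA, which binds calcium outside cells, or the agent labelled Tra, a MEK inhibitor by the name of the deposited table. By the labels, no group had BAPTA-AM, EGTA or Tra without a stimulus. Each treatment stood against the mock, DPBS, of its own experiment.

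In NCI-H1437 the experiments were H1437-1 (ALT+Tra, ALT, DPBS), H1437-2 (Aeg-S/L+Tra, Aeg-S/L, Aeg-S, Aeg-L, DPBS), H1437-3 (Aeg-S/L+BAPTA-AM, Aeg-S/L+EGTA, Aeg-S/L, DPBS) and H1437-4 (aegs KO ALT, aegl KO ALT, WT ALT, DPBS). In NCI-H292 they were H292-1, with the groups of H1437-4, and H292-2, with the groups of H1437-3. Mouse experiments were Lung1 (ALT, DPBS), Lung2 (Aeg-S/L, Aeg-S, Aeg-L, DPBS), Lung3 (the 3 extracts, DPBS), Lung4 (Lysenin, PlyA2EryB, LSL, DPBS; genotype WT), IL33KO1 (ALT, Aeg-S/L, DPBS) and IL33KO2 (Lysenin, PlyA2EryB, LSL, DPBS), both in IL-33 KO mice, and Rag2gc (Aeg-S/L, DPBS) in mice of genotype Rag2-/-; gc-/-. In the IL33KO and Rag2gc experiments the DPBS mice carried the same deletions as the treated mice. The labels give no genotype for Lung1 to Lung3, and no strain, sex or age for any mouse. Each group of Lung1 and H1437-1 had 3 libraries and each other group 2. The series states that they are biological replicates.

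As background, cells under stress phosphorylate the initiation factor eIF2alpha through kinases that sense misfolded protein in the endoplasmic reticulum, double-stranded RNA, lack of amino acids or mitochondrial and haem stress. Most translation then falls, while that of ATF4, a bZIP transcription factor, increases, and ATF4 raises the transcription of DDIT3, ATF3, TRIB3 and CHAC1. DDIT3 (CHOP) is a bZIP partner of C/EBP proteins known for its part in cell death under endoplasmic reticulum stress. ATF3 is a bZIP factor of the CREB and ATF family that is also an immediate early gene of MAP kinase and calcium signals. TRIB3 is a pseudokinase that binds ATF4 and the kinase AKT and acts as feedback, and CHAC1 is a gamma-glutamylcyclotransferase that breaks down glutathione.

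Sequences before a RefSeq start of ATF3, DDIT3 and CHAC1 are shown. All 3 genes are read as ATF4 targets. With EGTA beside Aeg-S/L, ATF3 was lower than with Aeg-S/L alone, whereas DDIT3 and CHAC1 were higher. Each line gives the 250 bases before a RefSeq start (GRCh38.p14), 5′ to 3′ on the strand of the gene, with matches to the searched motifs in capitals. The bases shown lie at chr1:212565157-212565406 on the plus strand, chr12:57520515-57520764 on the minus strand and chr15:40953221-40953470 on the plus strand.

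ATF3: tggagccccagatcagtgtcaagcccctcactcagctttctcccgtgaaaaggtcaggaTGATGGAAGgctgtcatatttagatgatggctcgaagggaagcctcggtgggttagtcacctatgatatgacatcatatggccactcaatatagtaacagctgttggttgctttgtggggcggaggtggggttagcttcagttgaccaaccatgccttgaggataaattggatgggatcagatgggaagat

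DDIT3: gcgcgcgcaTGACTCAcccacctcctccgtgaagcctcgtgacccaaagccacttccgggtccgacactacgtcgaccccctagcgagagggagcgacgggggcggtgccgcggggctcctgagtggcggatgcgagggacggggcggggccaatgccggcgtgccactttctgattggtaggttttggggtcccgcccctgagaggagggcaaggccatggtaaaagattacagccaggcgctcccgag

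CHAC1: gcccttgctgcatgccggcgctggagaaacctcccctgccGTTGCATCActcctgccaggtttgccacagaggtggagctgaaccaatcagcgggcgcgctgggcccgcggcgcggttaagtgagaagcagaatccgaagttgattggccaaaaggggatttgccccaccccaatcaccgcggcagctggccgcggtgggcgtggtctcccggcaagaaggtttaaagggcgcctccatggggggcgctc

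The motifs searched on both strands were TGATGNAAN, a core of the C/EBP-ATF response element that ATF4 and CHOP share, TGACGTCA, the cyclic AMP response element (CRE), its short form TGACG, and TGANTCA, the AP-1 element of FOS and JUN proteins. A full CRE also holds the short form. The windows searched ran on past the start, that of ATF3 to chr1:212565456. Over all 35116 such RefSeq windows, 3.61% held the C/EBP-ATF core, 1.85% a CRE, 24.6% the short form and 7.71% an AP-1 element. The ATF3 window held TGATGGAAG at position -191 from the start, and the CHAC1 window held the core on the other strand, GTTGCATCA, at -210. DDIT3 had TGACTCA, an AP-1 match, at -241. The short form, read on the other strand, stood at -160 and -125 from the ATF4 start, and none of the 4 motifs was in the 3 windows of TRIB3 or in that of a second ATF3 start. A match says only that these letters are present. The ATF3 sequence shown lies before the more upstream of its starts, and sequence outside the windows was not searched.

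In hg19, the build of the human tables, ATF4 (ENSG00000128272.10) lies at chr22:39915700-39918691 (+), ATF3 (ENSG00000162772.12) at chr1:212738676-212794119 (+), DDIT3 (ENSG00000175197.6) at chr12:57910371-57914300 (-), TRIB3 (ENSG00000101255.6) at chr20:361261-378203 (+) and CHAC1 (ENSG00000128965.7) at chr15:41245160-41248710 (+). In mm10, Atf4 (ENSMUSG00000042406.8) lies at chr15:80255184-80257541 (+), Atf3 (ENSMUSG00000026628.13) at chr1:191170296-191218039 (-), Ddit3 (ENSMUSG00000025408.15) at chr10:127290774-127296288 (+), Trib3 (ENSMUSG00000032715.9) at chr2:152337422-152344032 (-) and Chac1 (ENSMUSG00000027313.3) at chr2:119351229-119354381 (+). The counts cover the exons of each gene. Of the 1178 exonic bases of DDIT3, 355 are shared with MARS1, a tRNA synthetase gene on the other strand. The kit does not mark the strand, so fragments of those bases cannot be told apart. MARS1 itself changed by -0.24 to 0.47 on the log2 scale over the 30 human comparisons.

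Libraries held 32425310 to 53172930 counted fragments in the human lines and 29611231 to 66327693 in mouse. Levels are CPM, counts scaled to library size with TMM factors, and since each table was scaled on its own, levels set side by side across experiments are descriptions. Epithelial markers were present in every human library, with KRT8 at 984 to 2380 CPM in NCI-H1437 and 1700 to 2600 CPM in NCI-H292, and PTPRC, which defines leukocytes, stayed at or under 0.207 CPM. The 2 ciliated-cell markers, FOXJ1 and TPPP3, together gave 13.5 to 14.2 CPM under Aeg-S/L in H292-2, against 1.22 to 1.51 CPM in DPBS, 4.45 to 4.55 CPM under WT ALT in H292-1, against 0.931 to 1.32 CPM in DPBS, and 0.834 to 1.23 CPM under Aeg-S/L in H1437-3, against 0.769 to 0.937 CPM in DPBS. FOXJ1 made up most of the sums of stimulated NCI-H292, where TPPP3 was at 1.25 and 1.66 CPM under Aeg-S/L in H292-2, against 0.417 and 0.698 CPM in DPBS, and at 0.452 and 0.567 CPM under WT ALT in H292-1, against 0.455 and 0.331 CPM in DPBS. Their part in the results was not tested. Mitochondrial transcripts took 0.19 to 0.217% of counts with BAPTA-AM in H292-2 and 0.796 to 1.15% in H1437-3, while all other groups of these experiments lay between 1.06 and 3.45%. In H292-1 that share was 0.986 to 1.02% with WT ALT, against 2.51 to 2.79% in DPBS. Some libraries stood apart from their replicates. In the second Aeg-S library of H1437-2 that share was 5.66%, against 3.35% in the first, in the first aegl KO ALT library of H292-1 it was 0.554%, against 2.26% in the second, and in H1437-1 DPBS libraries 1 and 3 and ALT+Tra libraries 1 and 3 differed by a chi-square per degree of freedom of 343.3 and 247.06. In mouse the first DPBS library of IL33KO1 had 5.83%, against 3.06% in the other, and the DPBS libraries of Lung3 differed by a chi-square per degree of freedom of 200.56. Mouse cell type markers were not analysed here. In bulk RNA, fewer cells with a transcript and less of it per cell cannot be told apart.

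Per length, ATF4 was the most abundant member in DPBS cells of both human lines and ATF3 one of the rarest in NCI-H1437. In DPBS of H1437-3, ATF4 averaged 127.6 FPKM (CPM divided by exonic length in kilobases), TRIB3 65.5, DDIT3 2.37, CHAC1 1.82 and ATF3 0.422 FPKM. DPBS cells of H292-2 had ATF4 at 117.4, TRIB3 at 17.3, ATF3 at 10.0, DDIT3 at 8.99 and CHAC1 at 3.50 FPKM. The mouse lungs had another order in Lung1 to Lung3, where Atf3 led in DPBS with 166.8 to 194.0 FPKM, against 86.3 to 102.2 FPKM for Atf4.

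Stimulated human lines raised ATF3 in every experiment, ATF4 in 5 of 6 and DDIT3 in 4 of 6, while CHAC1 was called higher in 3 and TRIB3 higher in 1 and lower in 2. Calls needed an adjusted p under 0.05 by edgeR's quasi-likelihood test, the Benjamini-Hochberg adjustment running over every gene of a comparison. Under Aeg-S/L, 5 of the 5 members were called in H1437-3, all higher, where 31.2% of all tested genes were called in either direction. In H292-2, 5 of 5 were called, TRIB3 lower and the others higher, with 43.2% of all genes called. H1437-2 had 3 of 5 called, against 6.72% of all genes. With WT ALT, 4 of 5 were called in H1437-4, against 32.8% of all genes, and 2 of 5 in H292-1, against 22.9%. ALT in H1437-1 had 2 of 5 called, ATF3 higher and TRIB3 lower, against 4.71% of all genes. With the background this high in H1437-3, H1437-4 and H292-2, the counts alone say little about the members there, and the sizes of the changes carry the description.

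**Figure D1:**
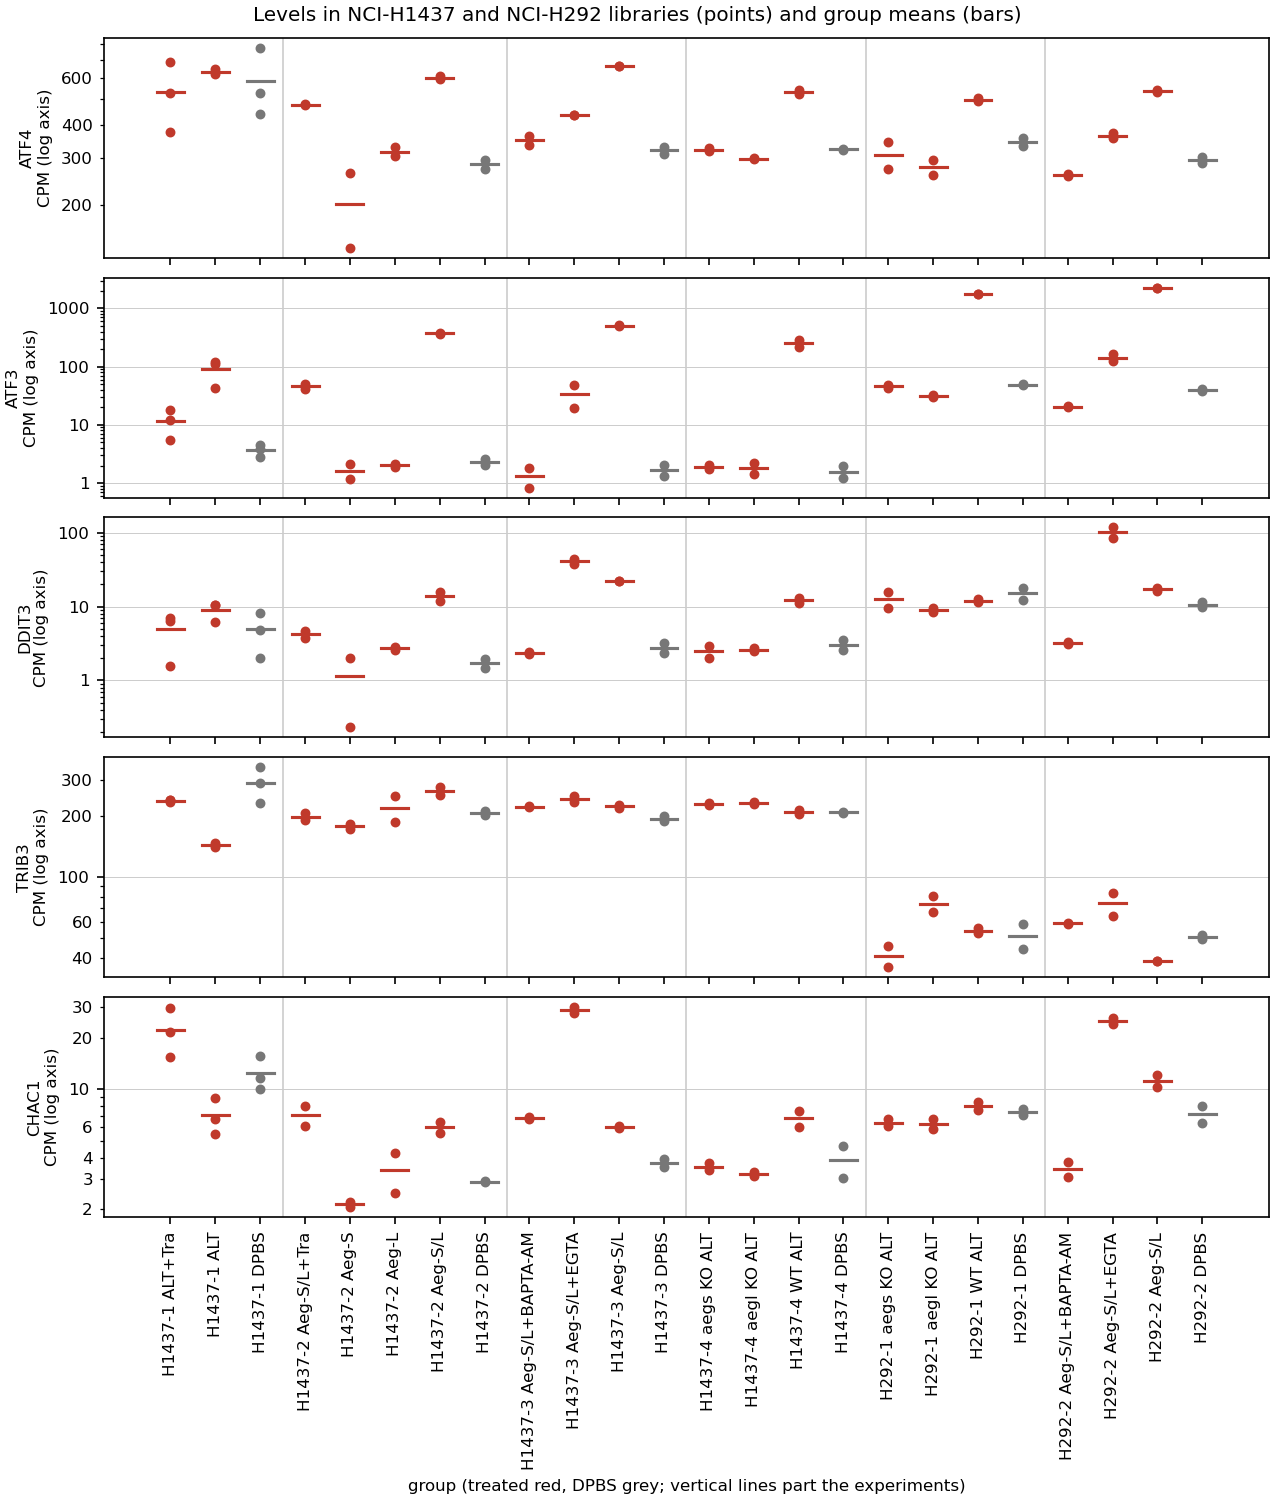
CPM of the 5 members (rows, log axes) in each human library (points) with group means (bars), experiments parted by vertical lines, treated groups in red left of their DPBS in grey. ATF3 spans from under 1 to 2273.3 CPM over the libraries, while TRIB3 stays between 140.6 and 345.4 CPM in NCI-H1437 and between 36.0 and 83.8 CPM in NCI-H292.

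ATF4, the factor at the head of the pathway, had higher transcript levels under Aeg-S/L than in the mock, by 1.81- to 2.11-fold over 3 experiments. In H1437-3 the Aeg-S/L libraries had 664 and 663 CPM, against 329.8 and 312 CPM in DPBS. Both were above both mocks, and the log2 change was 1.05 ± 0.05 (SE), adjusted p = 3.06e-10 by edgeR. H292-2 gave 538 and 531 CPM with Aeg-S/L, against 287 and 303 CPM in DPBS, a log2 change of 0.86 ± 0.05 (edgeR adjusted p = 1.15e-10). In H1437-2 the change was 1.08 ± 0.24 and in H292-1 under WT ALT 0.52 ± 0.14, and both calls were lost when any 1 of the 4 libraries was left out, with adjusted p up to 0.202 and 0.134. H1437-4 had 539 and 519.6 CPM under WT ALT, against 325 and 322 CPM in DPBS. ALT did not give a call in H1437-1, where the 3 DPBS libraries alone spread from 440.2 to 777 CPM and overlapped the ALT libraries at 621 to 647 CPM.

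ATF3 had the widest range of the 5. Its highest levels were 2273.3 and 2254.2 CPM in the Aeg-S/L libraries of H292-2, against 38.5 and 41.9 CPM in DPBS. These groups lie far apart, at 56.3-fold or a log2 change of 5.81 ± 0.10 (edgeR adjusted p = 2.65e-19). WT ALT in H292-1 gave 1751.2 and 1730.1 CPM, against 48.1 and 49.8 CPM in DPBS, 35.5-fold. In NCI-H1437 the mock level was lower, and the fold was larger in 3 of its 4 experiments. H1437-3 had 503 and 511 CPM under Aeg-S/L, against 1.33 and 2.04 CPM in DPBS, 299-fold or 8.22 ± 0.36 on the log2 scale (edgeR adjusted p = 3.64e-11). H1437-2 had 382 and 364 CPM under Aeg-S/L, against 2.07 and 2.60 CPM, and H1437-4 had 288 and 216 CPM under WT ALT, against 1.21 and 1.94 CPM. ALT of H1437-1 spread most, with 43.2, 111 and 119.7 CPM, against 4.49, 3.83 and 2.76 CPM in DPBS, 24.8-fold, and its lowest library was still above every mock. All 6 ATF3 increases stayed called without any single library.

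DDIT3 rose in 3 of 4 experiments in NCI-H1437 and in 1 of 2 in NCI-H292. In H1437-3, Aeg-S/L gave 22.3 and 22.5 CPM, against 2.37 and 3.21 CPM in DPBS, 8.001-fold (log2 change 3.0001 ± 0.15, edgeR adjusted p = 1.89e-10). H1437-2 had 15.9 and 12.1 CPM under Aeg-S/L, against 1.49 and 1.95 CPM, a log2 change of 3.02 ± 0.57. That call was lost without Aeg-S/L library 1, DPBS library 1 or DPBS library 2, with edgeR adjusted p of 0.0703 to 0.0935. WT ALT in H1437-4 gave 13.2 and 11.1 CPM, against 2.61 and 3.52 CPM in DPBS, 3.99-fold. ALT in H1437-1 gave 6.15, 10.5 and 10.6 CPM, against 8.18, 4.83 and 2.04 CPM in DPBS, overlapping and not called (log2 change 0.86 ± 0.56). Under Aeg-S/L in H292-2 the libraries stood at 16.4 and 17.98 CPM, against 11.4 and 9.77 CPM in DPBS, 1.63-fold (log2 change 0.70 ± 0.14, edgeR adjusted p = 0.000363). WT ALT in H292-1 gave 11.6 and 12.5 CPM, against 17.8 and 12.5 CPM in DPBS, and was not called.

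TRIB3, the feedback pseudokinase, had a narrower range than ATF3 in both lines. Over all libraries it ran from 140.6 to 345.4 CPM in NCI-H1437 and from 36.0 to 83.8 CPM in NCI-H292. Its mock level was 187.8 to 345.4 CPM in NCI-H1437 and 44.0 to 58.7 CPM in NCI-H292. Under Aeg-S/L it was 218 and 226 CPM in H1437-3, against 198 and 188 CPM in DPBS, a log2 change of 0.20 ± 0.06 that was no longer called without Aeg-S/L library 2 or DPBS library 2. H292-2 went the other way, with 38.8 and 38.5 CPM, against 49.8 and 52.1 CPM in DPBS, a log2 change of -0.40 ± 0.10 (edgeR adjusted p = 0.00263). ALT in H1437-1 gave 147, 141 and 143 CPM, against 345.4, 229.5 and 288 CPM in DPBS, a log2 change of -1.004 ± 0.19. The groups do not overlap, but that call was lost without any 1 of the 3 ALT libraries, with edgeR adjusted p of 0.0634 to 0.0796.

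CHAC1, the glutathione-degrading enzyme, rose modestly where it was called. Aeg-S/L gave 5.97 and 6.10 CPM in H1437-3, against 3.94 and 3.52 CPM in DPBS, 1.62-fold (edgeR adjusted p = 0.0013), and 12.1 and 10.4 CPM in H292-2, against 6.37 and 7.98 CPM, 1.56-fold (edgeR adjusted p = 0.00157). In H1437-4 WT ALT had 7.50 and 6.03 CPM, against 3.05 and 4.69 CPM in DPBS, a log2 change of 0.81 ± 0.22. Without DPBS library 1 this was 0.53 (edgeR adjusted p = 0.129), and without WT ALT library 1 it was 0.64 and also missed the threshold. ALT in H1437-1 had 5.51, 6.72 and 8.94 CPM, against 15.7, 11.6 and 10.0 CPM in DPBS, which was lower in each library and not called.

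**Figure D2:**
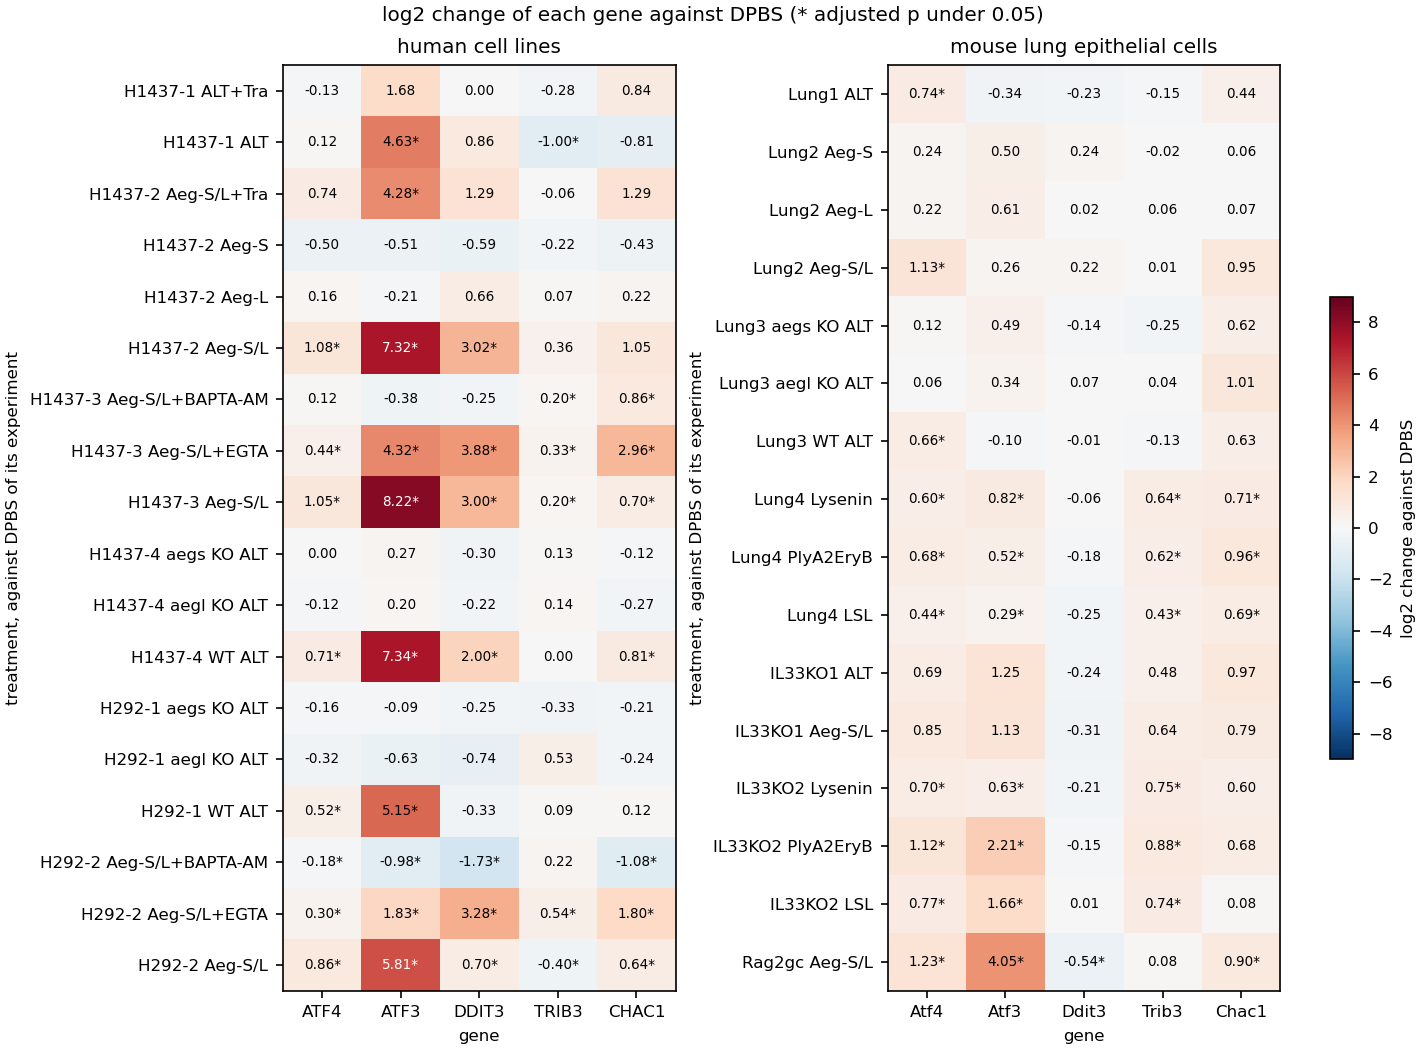
Log2 change against the DPBS of the same experiment for the 5 members (columns) in each treated group (rows), with calls at adjusted p under 0.05 starred. ATF3 holds the largest increases in the human lines, up to 8.22 in H1437-3, and Rag2gc the largest in mouse, 4.05.

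With either protein alone, no member was called against the mock. Aeg-S in H1437-2 had 0 of 5 members called by edgeR, as against 0% of all genes, and Aeg-L likewise 0 of 5 and 0%. Over all genes, 1491 had an unadjusted p under 0.05 for Aeg-S and 186 for Aeg-L, 0 members were among either, and DESeq2 also called 0 members. ATF3 had 2.08 and 1.18 CPM with Aeg-S and 2.16 and 1.88 CPM with Aeg-L, against 2.07 and 2.60 CPM in DPBS. In the second Aeg-S library, the one with 5.66% mitochondrial counts, DDIT3 was at 0.23 and ATF4 at 139 CPM, the lowest of all human libraries. Without the other Aeg-S library the change of ATF4 was -1.04, that of DDIT3 -2.88 and that of ATF3 -0.98, and all 3 were then called. Without the library that stands apart, ATF4 was at -0.11 and DDIT3 at 0.24, and neither was called.

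Extracts labelled aegs KO and aegl KO left the members at or near the mock, and ATF3 far below its level with the WT extract. ATF3 had 2.03 and 1.72 CPM with aegs KO ALT and 1.42 and 2.22 CPM with aegl KO ALT in H1437-4, against 288 and 216 CPM with WT ALT. The log2 changes were -7.07 ± 0.18 (edgeR adjusted p = 3.44e-14) and -7.14 ± 0.18 (edgeR adjusted p = 3.71e-14). In H292-1 the aegs KO libraries had 48.6 and 43.6 CPM and the aegl KO libraries 30.6 and 32.6 CPM, against 1751.2 and 1730.1 CPM with WT ALT. In H1437-4, 4 of 5 members were called lower with aegs KO ALT than with WT ALT, against 29.9% of all genes called, TRIB3 being the one not called (0.13 ± 0.05, though called at 0.17 without WT ALT library 2). With aegl KO ALT the same 4 were lower and TRIB3 higher, 5 of 5, against 30.6% of all genes. The TRIB3 change there was 0.15 ± 0.05 and was lost without WT ALT library 1 or either aegl KO library. In H292-1, 2 of 5 were lower with aegs KO ALT, against 26.6% of all genes, and 2 of 5 with aegl KO ALT, against 19%, ATF3 and ATF4 in each case. The aegl KO count was also 2 without its first library, the one with 0.554% mitochondrial counts. ATF4 with aegs KO ALT was 344 and 274 CPM, against 491 and 503 CPM with WT ALT, and its adjusted p was 0.0505 without WT ALT library 2.

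Set against DPBS, the knockout extracts had 0 of 5 members called by edgeR in each of the 4 human comparisons. In H1437-4 the share of all genes called was 1.08% for aegs KO ALT and 0.766% for aegl KO ALT, and in H292-1 it was 0% and 0.12%. At an unadjusted p under 0.05 the members numbered 1 (aegs KO) and 2 (aegl KO) in H1437-4 and 0 (aegs KO) and 4 (aegl KO) in H292-1. DESeq2 called 0, 0, 0 and 1 of them in that order. For ATF3 with aegl KO ALT in H292-1 the levels were 30.6 and 32.6 CPM, against 48.1 and 49.8 CPM in DPBS, below the mock without overlap, at a log2 change of -0.63 ± 0.12 (edgeR adjusted p = 0.117), and 0 members were called without the first of these libraries.

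With the agent labelled Tra, ATF3 stayed well under its level with the stimulus alone. ALT+Tra in H1437-1 had 17.9, 11.99 and 5.596 CPM, against 43.2, 111 and 119.7 CPM with ALT, a log2 change of -2.95 ± 0.47 (edgeR adjusted p = 0.00494). Aeg-S/L+Tra in H1437-2 had 49.9 and 41.3 CPM, against 382 and 364 CPM with Aeg-S/L, a log2 change of -3.03 ± 0.23 (edgeR adjusted p = 1.78e-05). In H1437-1, 2 of 5 members were called against ALT, with 5.08% of all genes, and the other was CHAC1, which was higher. CHAC1 had 29.8, 21.5 and 15.4 CPM with ALT+Tra, against 5.51, 6.72 and 8.94 CPM with ALT, 3.15-fold, and that call was lost without ALT library 1 or 2 (edgeR adjusted p up to 0.0568). In H1437-2, 1 of 5 was called against Aeg-S/L, with 1.27% of all genes. DDIT3 there was 4.67 and 3.78 CPM with Aeg-S/L+Tra, against 15.9 and 12.1 CPM with Aeg-S/L, without overlap and not called (log2 change -1.73 ± 0.53, edgeR adjusted p = 0.211).

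Set against DPBS, ALT+Tra had 0 of 5 called by edgeR, against 0.283% of all genes, with 2 members at an unadjusted p under 0.05 and 1 called by DESeq2. Aeg-S/L+Tra had 1 of 5 called, against 0.495% of all genes. That 1 was ATF3, at 49.9 and 41.3 CPM, against 2.07 and 2.60 CPM in DPBS, 19.5-fold (edgeR adjusted p = 8.58e-06).

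With a calcium chelator beside Aeg-S/L, the members moved apart from each other. With BAPTA-AM, ATF3 returned to the mock level or below it, DDIT3 fell with it, and ATF4 lost most of its increase. With EGTA, ATF3 and ATF4 were lower than with Aeg-S/L alone, whereas DDIT3 and CHAC1 stood above it in both lines. TRIB3 was higher with EGTA in NCI-H292. The stimulus of H292-2 is Aeg-S/L by the sample labels and by its columns of Aeg-S/L with and without EGTA, whereas the name of the deposited table says ALT. Its BAPTA-AM columns name the chelator alone and were taken as those of the group whose label gives both agents. Both chelator groups shared the same Aeg-S/L and DPBS libraries within an experiment. Since no group is labelled as a chelator without Aeg-S/L, a chelator's own effect cannot be told apart from its effect on the response.

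ATF3 had 1.80 and 0.835 CPM with BAPTA-AM and 48.7 and 19.5 CPM with EGTA in H1437-3, against 503 and 511 CPM with Aeg-S/L alone. The log2 changes were -8.60 ± 0.37 (edgeR adjusted p = 2.64e-11) and -3.90 ± 0.26 (edgeR adjusted p = 1.45e-08). The EGTA libraries lie apart from each other, yet both are far above the BAPTA-AM libraries. In H292-2 the levels were 19.99 and 20.8 CPM with BAPTA-AM and 162 and 124 CPM with EGTA, against 2273.3 and 2254.2 CPM with Aeg-S/L alone. There the log2 changes were -6.79 ± 0.10 (edgeR adjusted p = 1.02e-19) and -3.98 ± 0.09 (edgeR adjusted p = 4.24e-17). With BAPTA-AM the H292-2 level lay under the mock of 38.5 and 41.9 CPM, a log2 change of -0.98 ± 0.09 against DPBS (edgeR adjusted p = 1.18e-07), and in H1437-3 it overlapped the mock of 1.33 and 2.04 CPM.

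DDIT3 had 2.30 and 2.40 CPM with BAPTA-AM and 44.7 and 37.5 CPM with EGTA in H1437-3, against 22.3 and 22.5 CPM with Aeg-S/L alone and 2.37 and 3.21 CPM in DPBS. EGTA was 1.84-fold over Aeg-S/L (log2 change 0.88 ± 0.12, edgeR adjusted p = 4.43e-05) and 14.7-fold over DPBS. In H292-2 the gap was wider, with 3.07 and 3.28 CPM with BAPTA-AM and 119 and 86.3 CPM with EGTA, against 16.4 and 17.98 CPM with Aeg-S/L alone and 11.4 and 9.77 CPM in DPBS. EGTA was 5.96-fold over Aeg-S/L there (log2 change 2.57 ± 0.13, edgeR adjusted p = 6.67e-12), and BAPTA-AM lay below the mock (log2 change -1.73 ± 0.16, edgeR adjusted p = 8.13e-08). Between the chelators DDIT3 differed by -4.12 ± 0.15 in H1437-3 and by -5.01 ± 0.15 in H292-2, BAPTA-AM under EGTA.

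CHAC1, like DDIT3, was highest with EGTA in both lines. In H1437-3 it had 6.70 and 6.86 CPM with BAPTA-AM and 28.0 and 30.2 CPM with EGTA, against 5.97 and 6.10 CPM with Aeg-S/L alone and 3.94 and 3.52 CPM in DPBS. EGTA was thus 4.81-fold over Aeg-S/L (log2 change 2.27 ± 0.13, edgeR adjusted p = 1.62e-09), while BAPTA-AM did not give a call against Aeg-S/L (0.17 ± 0.13, 95% interval from -0.09 to 0.43). In H292-2 it had 3.75 and 3.08 CPM with BAPTA-AM and 26.0 and 23.9 CPM with EGTA, against 12.1 and 10.4 CPM with Aeg-S/L alone. EGTA was 2.23-fold over Aeg-S/L (edgeR adjusted p = 1.65e-06) and BAPTA-AM 0.304-fold (edgeR adjusted p = 3.81e-08).

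ATF4 had 363 and 337 CPM with BAPTA-AM and 435 and 435 CPM with EGTA in H1437-3, against 664 and 663 CPM with Aeg-S/L alone and 329.8 and 312 CPM in DPBS. In H292-2 BAPTA-AM was again below EGTA, with 262 and 258 CPM with BAPTA-AM and 372 and 356 CPM with EGTA, against 538 and 531 CPM with Aeg-S/L alone. There BAPTA-AM was below the mock of 287 and 303 CPM by a log2 change of -0.18 ± 0.05, a call that was lost without either BAPTA-AM library or without DPBS library 2. So with EGTA the transcript of ATF4 was under its Aeg-S/L level while those of its targets DDIT3 and CHAC1 were over it, in 2 of 2 lines. TRIB3 had 59.7 and 58.6 CPM with BAPTA-AM and 83.8 and 64.5 CPM with EGTA in H292-2, against 38.8 and 38.5 CPM with Aeg-S/L alone, and both were called higher (log2 changes 0.61 ± 0.10 and 0.94 ± 0.10). In H1437-3, TRIB3 lay at 221 and 222 CPM with BAPTA-AM and 233 and 251 CPM with EGTA, against 218 and 226 CPM with Aeg-S/L, and neither was called.

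**Figure D3:**
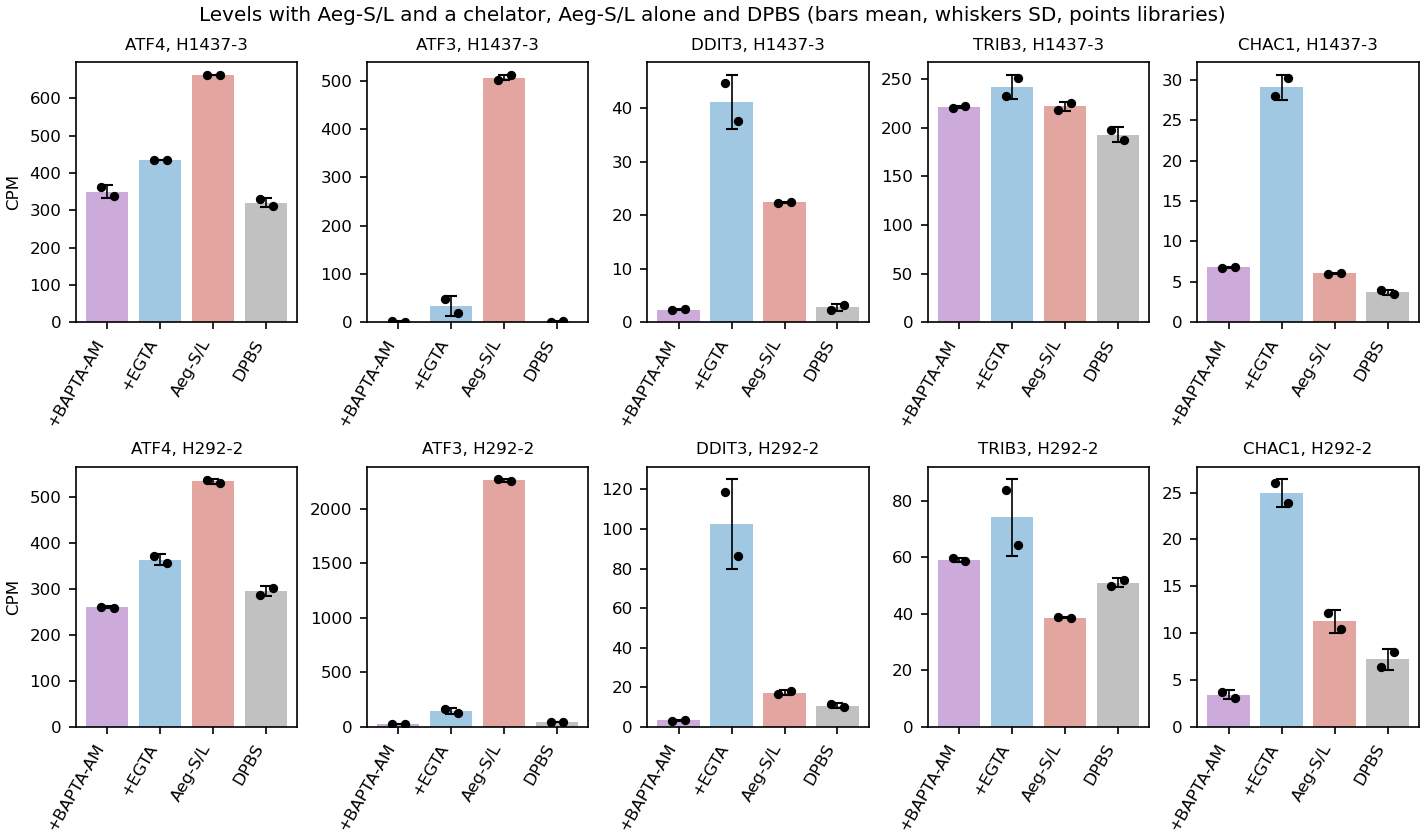
CPM of the 5 members (linear axes from 0, each with its own scale) in the libraries (points) of H1437-3 (upper row) and H292-2 (lower row) with Aeg-S/L+BAPTA-AM, Aeg-S/L+EGTA, Aeg-S/L alone and DPBS, with group means as bars and SD as whiskers. DDIT3 and CHAC1 are highest with EGTA in both lines, while ATF3 and ATF4 are highest with Aeg-S/L alone.

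By count, BAPTA-AM against Aeg-S/L had 3 of 5 members called in H1437-3, all lower, where 27.7% of all genes were called, and 5 of 5 in H292-2, TRIB3 higher and the others lower, where 37.9% were called. EGTA against Aeg-S/L had 4 of 5 called in H1437-3, 2 higher and 2 lower, against 30.6% of all genes, and 5 of 5 in H292-2, 3 higher and 2 lower, against 44.9%. BAPTA-AM against EGTA had 4 of 5 called lower in H1437-3, against 37.7% of all genes, and 5 of 5 lower in H292-2, against 46.6%. The TRIB3 change in the last of these was -0.33 ± 0.09, and was not called without BAPTA-AM library 2 (-0.31) or EGTA library 1 (-0.13), while it was -0.52 without EGTA library 2. Against DPBS, BAPTA-AM had 2 of 5 called in H1437-3, CHAC1 and TRIB3, both higher, against 34.1% of all genes, and 4 of 5 in H292-2, all lower, against 36.6%. EGTA against DPBS had 5 of 5 called higher in H1437-3, against 5.18% of all genes, and 5 of 5 higher in H292-2, against 34.5%. The TRIB3 calls against DPBS in H1437-3 were small, 0.20 ± 0.06 with BAPTA-AM and 0.33 ± 0.06 with EGTA, and each was lost without 1 or more single libraries. With BAPTA-AM the share of mitochondrial transcripts was also lowest in both lines, and its part in these changes was not tested.

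The 2 lines differed in how far the members moved. Tested as a difference of effects in a joint fit, the Aeg-S/L effect on ATF3 was smaller in H292-2 than in H1437-3, with a difference of -2.39 ± 0.41 on the log2 scale (edgeR adjusted p = 0.000246), though the level reached was higher in NCI-H292. That on DDIT3 differed by -2.28 ± 0.22 (edgeR adjusted p = 8.21e-08), while ATF4 (-0.17 ± 0.08) and CHAC1 (-0.04 ± 0.21) gave no call. In all, 3 of 5 members differed for Aeg-S/L, against 14.3% of all genes, 4 of 5 for BAPTA-AM on top of Aeg-S/L, against 11%, and 3 of 5 for EGTA on top of Aeg-S/L, against 14.4%. The EGTA effect, H292-2 minus H1437-3, was 1.69 ± 0.19 for DDIT3 and -1.12 ± 0.20 for CHAC1. The BAPTA-AM difference for ATF3, 1.77 ± 0.45, was 1.29 and not called without H1437-3 BAPTA-AM library 2, and that for DDIT3, 0.77 ± 0.24, was lost without any 1 of the 8 libraries. For WT ALT, H292-1 against H1437-4 had 2 of 5 members called, against 8.9% of all genes, ATF3 (-2.22 ± 0.25) and DDIT3 (-2.36 ± 0.35). Line and experiment cannot be told apart in these differences.

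Sorted by group mean over the 24 human groups, the top 5 for ATF3 were Aeg-S/L in H292-2, WT ALT in H292-1, Aeg-S/L in H1437-3, Aeg-S/L in H1437-2 and WT ALT in H1437-4, and no 2 of these overlap. Of all 23 neighbouring pairs, 13 overlap. For DDIT3 the order was led by the EGTA groups of H292-2 and H1437-3, and 16 of 23 neighbouring pairs overlap. For CHAC1 it was led by EGTA in H1437-3, EGTA in H292-2 and ALT+Tra in H1437-1, with 18 of 23 pairs overlapping. ATF4 was highest under Aeg-S/L in H1437-3 and had 16 overlapping pairs, and TRIB3 had 15.

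The rest of the pathway was read from lists of named genes. Among the 7 sensors and switches of the response (the eIF2alpha kinases, eIF2alpha itself and the phosphatase subunits that reverse its phosphorylation), the inducible phosphatase subunit PPP1R15A (GADD34) led. It averaged 894 CPM under Aeg-S/L in H1437-3, against 10.5 CPM in DPBS (log2 change 6.42 ± 0.13), and 2064 CPM, against 95.4 CPM, in H292-2 (4.43 ± 0.07). With BAPTA-AM its change against Aeg-S/L was -5.99 in H1437-3 and -5.11 in H292-2, and with EGTA it was -2.79 and -2.51. EIF2AK3, the kinase PERK that senses misfolded protein in the endoplasmic reticulum, rose under Aeg-S/L by 0.55 ± 0.08 and 0.80 ± 0.10, and its change with BAPTA-AM against Aeg-S/L was -1.46 and -1.68. In all, Aeg-S/L had 3 higher and 2 lower of 7 in H1437-3 (median change 0.09) and 4 higher and 1 lower in H292-2 (median 0.31), where the medians of all genes were 0.01 and -0.01. Of all tested genes, 15.4% rose and 15.8% fell in H1437-3, and 22.1% rose and 21.1% fell in H292-2.

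Among 18 other targets of ATF4 and CHOP, the response was mixed. Under Aeg-S/L, 15.4% of all tested genes rose and 15.8% fell in H1437-3, and 22.1% rose and 21.1% fell in H292-2. Of the 18 targets, 5 rose in H1437-3 and 3 fell, the latter near the share of all genes (median 0.02). In H292-2, 4 rose, near the share of all genes, and 8 fell (median -0.14). Those that rose most in both lines were GDF15, a stress-induced cytokine, with 2.56 ± 0.09 and 1.64 ± 0.06, TNFRSF10B, the death receptor DR5, with 1.53 ± 0.07 and 1.27 ± 0.06, and SESN2, a stress-induced inhibitor of mTORC1 signalling, with 1.15 ± 0.17 and 1.34 ± 0.08. SLC7A11, the cystine transporter that feeds glutathione synthesis, fell in both, by 0.61 ± 0.08 in H1437-3 and 1.77 ± 0.06 in H292-2. With EGTA against Aeg-S/L, 8 rose and 2 fell in H1437-3 (median 0.17), where 15.8% of all tested genes rose and 14.8% fell, and 10 rose and 4 fell in H292-2 (median 0.52), where 23.2% rose and 21.7% fell. SESN2 rose further in H1437-3, by 1.35 ± 0.15, and changed by -0.23 ± 0.08 in H292-2, and DDIT4, another inhibitor of mTORC1, rose in H292-2 by 1.61 ± 0.08, where Aeg-S/L had set it at -1.72 against DPBS. GDF15 and TNFRSF10B were lower with EGTA than with Aeg-S/L in both lines, with changes of -0.99 and -1.31 in H1437-3 and of -1.57 and -0.99 in H292-2.

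The 14 genes listed for the ATF6 and XBP1 arms of the unfolded protein response moved under EGTA. Against Aeg-S/L alone, 9 of 14 rose and 0 fell in H1437-3 (median 0.27) and 14 of 14 rose in H292-2 (median 0.84). The medians of all genes were -0.02 and 0.01, and the shares of all genes are those given for EGTA just above. HERPUD1, which links misfolded protein to its degradation, rose by 2.02 ± 0.07 and 3.39 ± 0.07. XBP1, a factor of these arms, rose by 0.64 ± 0.05 and 1.84 ± 0.07. Under Aeg-S/L against DPBS, 1 rose and 4 fell in H1437-3, where 15.4% of all tested genes rose and 15.8% fell. In H292-2, 3 rose and 8 fell, where 22.1% of all genes rose and 21.1% fell. Fewer of these genes rose than fell in each line, though 3 of 14 rising in H292-2 is near the background. With BAPTA-AM against Aeg-S/L, 1 rose and 7 fell in H1437-3 and 3 rose and 9 fell in H292-2, where 11.6% and 17.6% of all genes rose and 16.1% and 20.3% fell. DNAJB9, a chaperone cofactor of the endoplasmic reticulum, fell by 2.14 ± 0.10 and 1.87 ± 0.08.

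**Figure D4:**
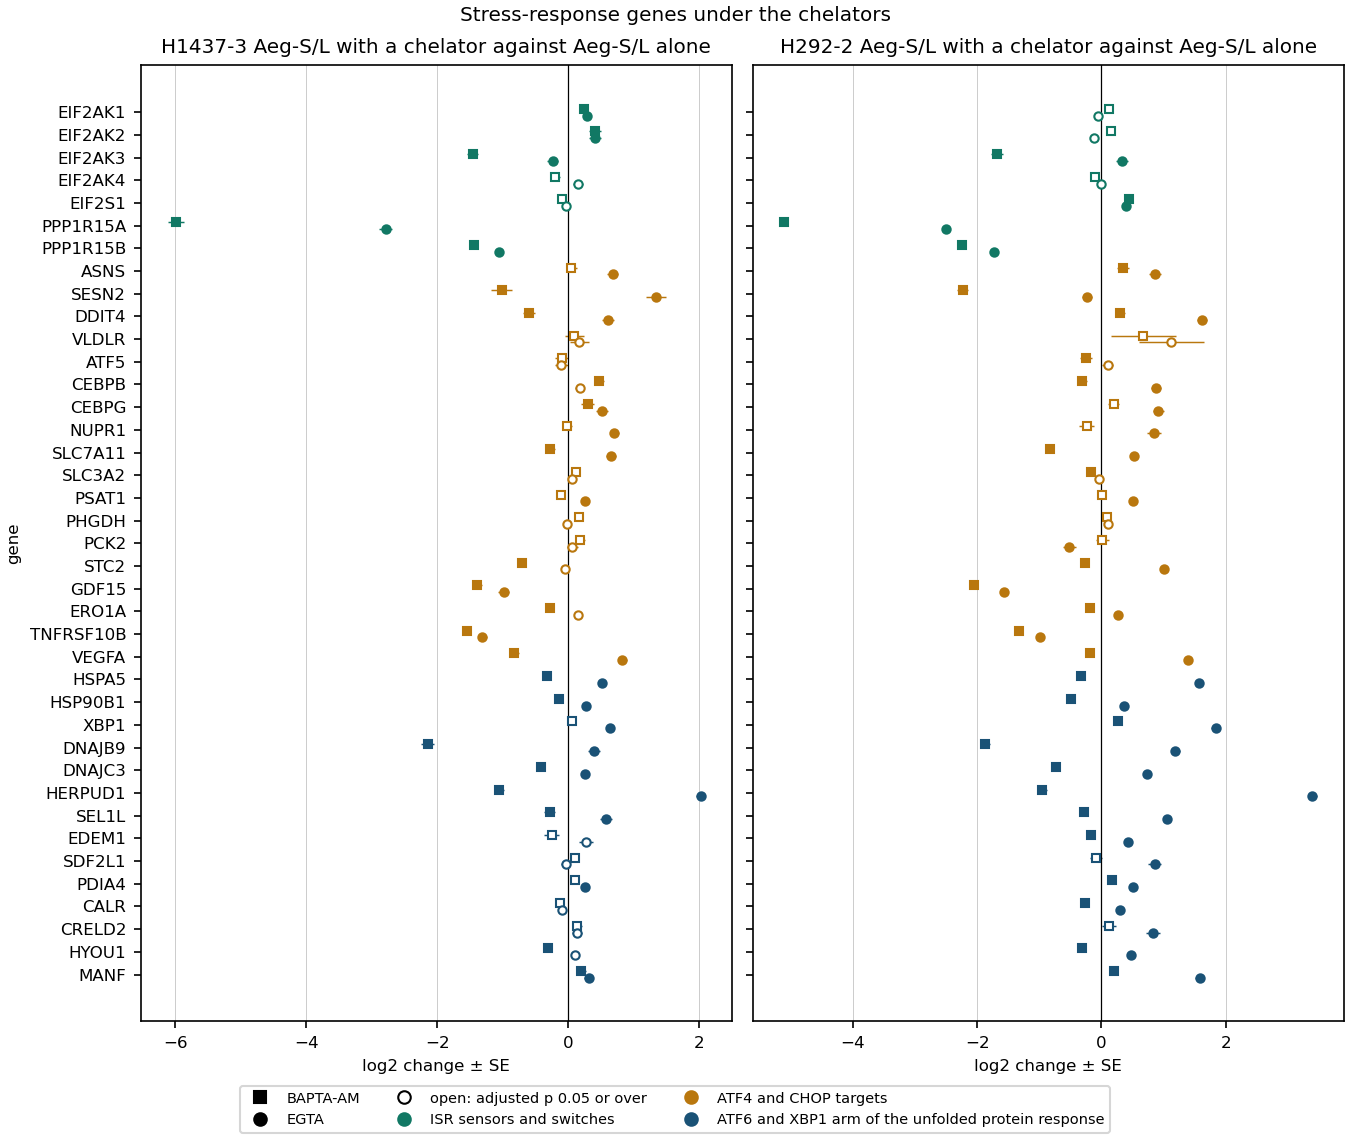
Log2 change with BAPTA-AM (squares) and EGTA (circles) against Aeg-S/L alone for the genes of the pathway lists in H1437-3 and H292-2, calls filled. With EGTA the genes of the ATF6 and XBP1 arms lie to the right of 0 in H292-2, 14 of 14 called, and PPP1R15A lies at -2.79 and -2.51.

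Close relatives of the members moved in both directions. With Aeg-S/L, 5 of the 11 bZIP relatives tested in H1437-3 rose and 1 fell, while 2 of the 10 tested in H292-2 rose and 4 fell. Of all tested genes, 15.4% rose and 15.8% fell in H1437-3, and 22.1% rose and 21.1% fell in H292-2, so 2 of 10 is near the background. CREM, a CRE-binding factor, rose in H1437-3 by 1.31 ± 0.08 and fell in H292-2 by 0.39 ± 0.13. Among the 3 relatives of TRIB3 and CHAC1, TRIB1 rose by 2.52 ± 0.08 in H1437-3 and 4.26 ± 0.11 in H292-2, unlike TRIB3. CHAC2 was not called under Aeg-S/L, with log2 changes of -0.10 ± 0.08 in H1437-3 and 0.01 ± 0.21 in H292-2.

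By Pearson's r over the changes in the 18 treated human groups, among 14232 genes, the genes most like each member were as follows, as a description of groups that share mocks and stimuli. ATF3 was closest to PPP1R15A (0.986), KLF6 (0.983), TIPARP (0.972), RND1 (0.952) and TNFAIP3 (0.951). ATF4 was closest to NFKBIB (0.939), RND1 (0.928), CHASERR (0.923), ADM (0.922) and EIF1 (0.921). DDIT3 was closest to IP6K2 (0.897), CLK1 (0.870), BCL6 (0.866), IFNGR1 (0.865) and ENSG00000272009 (0.853). CHAC1 had SESN2 (0.872), SNAI2 (0.807), DDIT3 (0.795), ZNF165 (0.791) and YARS1 (0.789). TRIB3 had LIMK2 (0.839), PELP1 (0.835), TIMM44 (0.830), IGSF9 (0.806) and ZBED10P (0.804), each at lower r than the leading partners of ATF3 and ATF4.

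In mouse lung cells Atf4 was the member most often raised, in 10 of 16 treated groups, Atf3 was raised in 7 and Ddit3 in none. Where Atf4 was called, 34.2% (WT ALT in Lung3) to 68.1% (Aeg-S/L in Rag2gc) of all genes were called. In the remaining treated groups that share was 0 to 10.9%, so these counts alone say little about the members. The mock level of Atf3 differed between experiments far more than that of the others. Over the 15 DPBS libraries it ran from 10.2 CPM in Rag2gc to 456 CPM in Lung3 with a median of 69.1 CPM, whereas Atf4 ran from 131 to 287.5 CPM and Ddit3 from 4.18 to 8.23 CPM. In Lung1 to Lung3, where the mock stood at 317 to 456 CPM, no stimulus gave a call for Atf3.

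**Figure D5:**
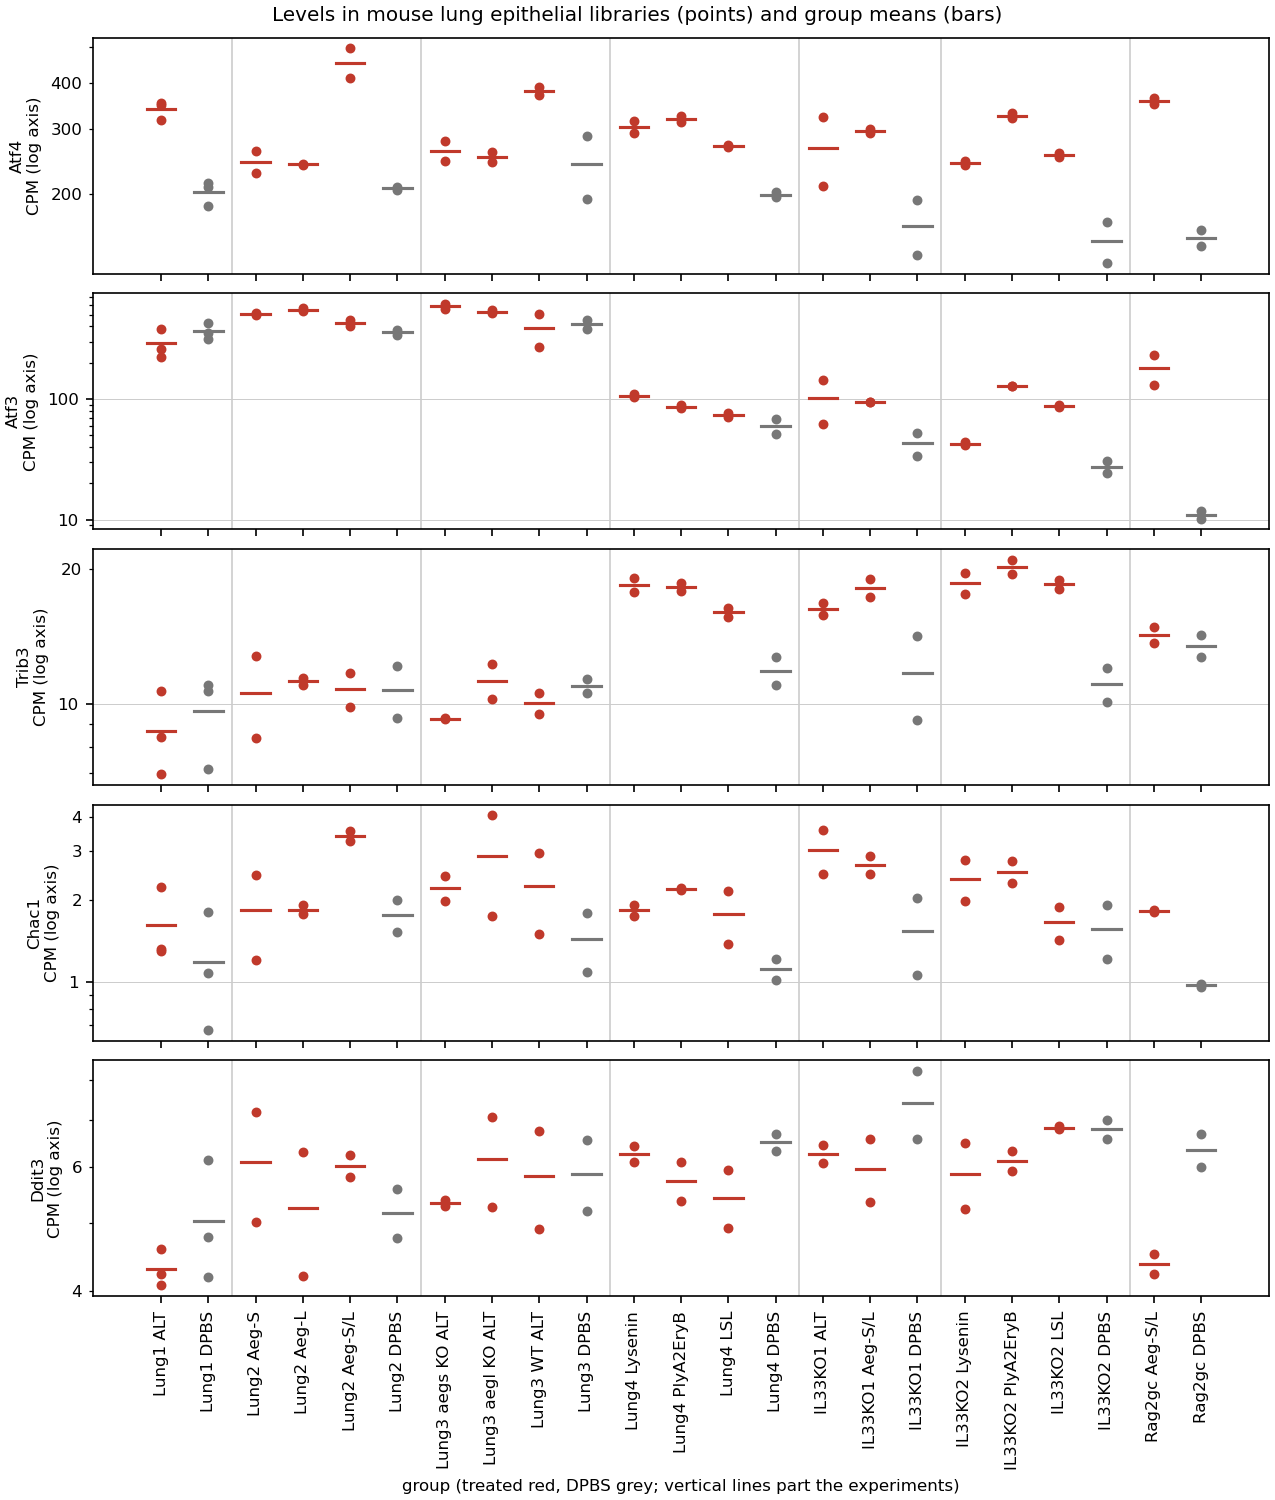
CPM of the 5 mouse members (rows, log axes) in each library (points) with group means (bars), treated groups in red left of their DPBS in grey. Atf3 in DPBS stands between 10.2 and 456 CPM over the 7 experiments, while Atf4 in DPBS stays between 131 and 287.5 CPM.

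ALT in Lung1 raised Atf4 to 348, 353 and 318 CPM, against 209.5, 187 and 214 CPM in DPBS. The groups do not overlap, and the log2 change was 0.74 ± 0.08 (edgeR adjusted p = 6.04e-06). Atf3 had 225, 384 and 259.6 CPM with ALT, against 317, 353 and 426 CPM in DPBS, overlapping, and was called lower, at -0.60, without ALT library 2. Atf4 was the 1 of 5 members called, against 58.6% of all genes. In Lung3, WT ALT also had 1 of 5 called, Atf4, against 34.2% of all genes, with 372 and 389.7 CPM, against 194 and 287.5 CPM in DPBS. That change was 0.66 ± 0.20, was lost without either WT ALT library (edgeR adjusted p = 0.135 and 0.167) and was 0.39 without DPBS library 1. With aegs KO ALT and aegl KO ALT Atf4 was 278 and 246 CPM and 259.6 and 244 CPM, without overlap with WT ALT and not called against it (edgeR adjusted p = 0.0794 and 0.0588). For both knockout extracts edgeR called 0 of 5 against WT ALT, where 28.8% (aegs KO) and 27.8% (aegl KO) of all genes were called, with 1 member at an unadjusted p under 0.05 and 1 called by DESeq2 in each. Against DPBS both had 0 of 5 called by edgeR and by DESeq2, 0 members at an unadjusted p under 0.05, and 0% and 0% of all genes called, with 1063 (aegs KO) and 979 (aegl KO) genes at an unadjusted p under 0.05.

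Aeg-S/L in Lung2 raised Atf4 to 411 and 495 CPM, against 210.0 and 205 CPM in DPBS, 2.18-fold (edgeR adjusted p = 0.000714), and 1 of 5 members was called, against 38.8% of all genes. Atf3 there was 406 and 457 CPM, against 377 and 342 CPM in DPBS, and not called. Aeg-S and Aeg-L alone had 0 of 5 called by edgeR and by DESeq2 and 0% and 0% of all genes, with 1178 and 599 genes at an unadjusted p under 0.05. Atf3 was the 1 member below that p for each, at 498 and 519.9 CPM with Aeg-S and 536 and 565 CPM with Aeg-L.

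In Rag2gc, Aeg-S/L had 4 of 5 members called, 3 higher and 1 lower, against 68.1% of all genes. With the background this high, the count alone says little about the members. Atf3 had 232 and 132 CPM, against 10.2 and 11.8 CPM in DPBS, 16.6-fold (log2 change 4.05 ± 0.24, edgeR adjusted p = 2.55e-07). The treated libraries differ from each other, but both are far above the mock. Atf4 had 365 and 349.5 CPM, against 145 and 160.3 CPM, 2.34-fold, and Chac1 1.80 and 1.84 CPM, against 0.991 and 0.96 CPM, 1.86-fold. Ddit3 was lower, with 4.51 and 4.23 CPM, against 6.70 and 6.00 CPM in DPBS (log2 change -0.54 ± 0.14, edgeR adjusted p = 0.00604), the 1 mouse comparison in which it was called. Mouse Ddit3 shares 68, 13 and 105 exonic bases with 3 gene IDs that the references used here do not name. The ID with 68 shared bases, ENSMUSG00000040354.14, averaged 48.3 CPM with Aeg-S/L in Rag2gc, against 42.8 CPM in DPBS (log2 change 0.17 ± 0.06). The ID with 13, ENSMUSG00000092384.7, averaged 0.27 CPM, against 0.33 CPM. The part of shared bases in the Ddit3 counts was not tested.

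Atf3, Atf4 and Trib3 were called higher with each pore-forming protein in both genotypes tested. The shares of all genes called were high in both experiments, so the counts alone say little about the members. In Lung4, 4 of 5 members were called higher with Lysenin, against 63.6% of all genes, 4 of 5 with PlyA2EryB, against 64.7%, and 4 of 5 with LSL, against 65.8%, all but Ddit3 in each case. Atf3 had 103 and 109.7 CPM with Lysenin, 88.9 and 83.9 CPM with PlyA2EryB and 76.2 and 71.5 CPM with LSL, against 69.1 and 51.5 CPM in DPBS. The change with LSL was 0.29 ± 0.09 and rested on the mocks, being 0.51 without DPBS library 1 and 0.09 without DPBS library 2, and DESeq2 did not call it. With PlyA2EryB it was 0.52 ± 0.09, and 0.31 without DPBS library 2. Trib3 had 17.8 and 19.1 CPM with Lysenin, 18.6 and 17.9 with PlyA2EryB and 16.4 and 15.6 with LSL, against 12.7 and 11.04 CPM in DPBS, so all 6 treated libraries were above both mocks. Chac1 lay between 1.02 and 2.203 CPM. Its calls with Lysenin (0.71 ± 0.24) and LSL (0.69 ± 0.24) were not made by DESeq2, and the LSL change was 0.30 without LSL library 2. The Lysenin call was also lost without Lysenin library 2 or DPBS library 2.

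In IL33KO2, 3 of 5 were called higher with Lysenin, against 39.7% of all genes, 3 of 5 with PlyA2EryB, against 50.3%, and 3 of 5 with LSL, against 37.4%, in each case Atf3, Atf4 and Trib3. Atf3 had 41.6 and 43.8 CPM with Lysenin, 128 and 128 CPM with PlyA2EryB and 86.0 and 88.8 CPM with LSL, against 24.7 and 30.6 CPM in DPBS. PlyA2EryB was thus 4.62-fold over the mock (edgeR adjusted p = 3.15e-06), LSL 3.16-fold and Lysenin 1.54-fold, an order other than that of Lung4, where Lysenin was highest. In IL33KO1 edgeR called 0 of 5 for ALT, against 2.92% of all genes, and 0 of 5 for Aeg-S/L, against 10.9%, with 2 and 3 members at an unadjusted p under 0.05 and 1 and 2 called by DESeq2. Atf3 there had 144 and 61.8 CPM with ALT and 95.01 and 93.9 CPM with Aeg-S/L, against 33.7 and 52.8 CPM in DPBS, where the first DPBS library, at 33.7 CPM, is the one with 5.83% mitochondrial counts, whose part was not tested. Without the other DPBS library, Trib3 was called for ALT (0.83) and Atf4 (1.14), Chac1 (1.35) and Trib3 (1.01) for Aeg-S/L.

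Differences of effect between mouse experiments were called for Atf3 in 4 of 6 comparisons and for Atf4 in 1. Against Lung2, the Aeg-S/L effect in Rag2gc had 1 of 5 members called, against 7.58% of all genes, Atf3 at 3.70 ± 0.30 higher (edgeR adjusted p = 0.00013). In IL33KO1 against Lung2 it was 0 of 5 by edgeR, against 8.61% of all genes, with 0 members at an unadjusted p under 0.05. The ALT effect in IL33KO1 against Lung1 had 1 of 5 called, against 13.5% of all genes, Atf3 at 1.61 ± 0.45, which was lost without 7 of the 10 libraries, left out 1 at a time, and was 0.88 without IL33KO1 ALT library 1. That library, at 144 CPM, was well above the other at 61.8 CPM. For IL33KO2 against Lung4, 2 of 5 were called for PlyA2EryB, Atf3 and Atf4, against 14.7% of all genes, the Atf4 call being lost without 6 of the 8 libraries, left out 1 at a time, 1 of 5 for LSL, Atf3, against 22.6%, and 0 of 5 by edgeR for Lysenin, against 14.5%, with 0 members at an unadjusted p under 0.05. Genotype and experiment cannot be told apart in these differences, and the mock levels of Atf3 differed between the experiments compared.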

How the data were processed

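RNA-seq libraries of mouse lung epithelial cells and of 2 human lung cancer lines were analysed from 13 tables of fragment counts per gene that the authors deposited. Per the submitters' processing notes, the tools included HISAT2 2.2.1, SAMtools, featureCounts 2.0.2, DESeq2 1.36.0 and R 4.2.2, with builds hg19 and mm10. No source used here gives the strand setting. All 99 count columns were mapped to samples by their names; 6 columns, in 3 pairs that share a name, are replicates with no number. Lines without a gene ID, 2 in Lung4, held at most 2.2e-05% of counts and were left out.

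Counts were tested with edgeR 4.0.16 in R 4.3.3 (TMM scaling, filterByExpr, quasi-likelihood F test), with all groups of a table in 1 fit, and p-values were adjusted over all genes (Benjamini-Hochberg, called under 0.05) in 48 comparisons. Differences of effect between tables (10 comparisons) came from joint fits with interaction contrasts. Errors on log2 changes are standard errors, taken as the change over the square root of F, and intervals span 1.96 of them. DESeq2 1.42.0, its size factors, no filter on low counts, the replicate number as a block, and leaving out each library were the alternatives. On data simulated for Aeg-S/L against DPBS in H1437-3, the test recovered 87% of 100 genes changed by 1 and 100% of 100 genes changed by 2 on the log2 scale, with 12 false among 199 calls over 16196 genes. The changed genes were drawn only from those above a count threshold, and the spread followed the trend over all genes. Recovery of genes with low counts or unequal replicates was not simulated. Replicate libraries differed beyond counting noise in every pair (chi-square per degree of freedom at least 2.81). FPKM values were computed here from CPM and exonic length.

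The members and the gene lists were chosen with earlier results of these data known. The genes named are the members, the 3 called genes of each list with the largest increase and the 3 with the largest decrease per comparison, and the 5 genes most like each member; CHAC2, and genes given for a second line or a second treatment, were named after their values were seen. Promoter sequences are RefSeq's, and 51996 of 57820 human gene IDs had a name. Mouse lists and markers were not analysed here because the references used name none of the 55401 mouse IDs; the mouse members were taken by the gene IDs given for them.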

Additional observations from a re-analysis of the deposited data

Results flagged for a closer look

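Between the human lines, effects under the same treatment differed by edgeR's test of the difference for several members, all as H292-2 minus H1437-3 on the log2 scale. For Aeg-S/L the differences were -2.39 for ATF3, -2.28 for DDIT3 and -0.58 for TRIB3. For BAPTA-AM on top of Aeg-S/L they were 1.77 for ATF3, 0.77 for DDIT3, -1.93 for CHAC1 and 0.57 for TRIB3. For EGTA on top of Aeg-S/L they were 1.69 for DDIT3, -1.12 for CHAC1 and 0.81 for TRIB3. For WT ALT, H292-1 minus H1437-4, they were -2.22 for ATF3 and -2.36 for DDIT3. In mouse, Atf3 differed by 1.61 for ALT (IL33KO1 minus Lung1), 3.70 for Aeg-S/L (Rag2gc minus Lung2), 1.68 for PlyA2EryB and 1.36 for LSL (both IL33KO2 minus Lung4), and Atf4 differed by 0.44 for PlyA2EryB (IL33KO2 minus Lung4). Line or genotype and experiment cannot be told apart in any of these.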

How the results depend on the processing

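Of the members' changes, leaving out 1 library kept direction and call in 1324 of 1410 values, weakened 62, strengthened 23 and turned 1 round: the EGTA effect on ATF3, H292-2 minus H1437-3, was 0.67 without H1437-3 EGTA library 1 and -0.66 without library 2, against -0.09 with all libraries. The same held for DESeq2 in 226 of 240, for its size factors in 288 of 290 and for no filter on low counts in 268 of 290. No experiment had the correlation of every pair of libraries with the same replicate number over 0.1. That rule cannot exclude pairing of some libraries, since in H1437-1 the correlations ran from -0.145 to 0.466. The replicate block kept direction and call in 216 of 220. With it, the number of members called became 2 for ALT in Lung1 (1 without the block) and 0 for WT ALT in Lung3 (1 without it). In IL33KO2 the LSL and DPBS columns carry numbers, and the replicate block on these 4 libraries, chosen after seeing the data, called 3 members for LSL against DPBS, as did the same libraries without it and the fit of all groups; over all genes the calls were 3372, 3496 and 7028 in that order. No paired analysis was possible for Lysenin and PlyA2EryB in IL33KO2 or in Rag2gc because columns of these groups or of their DPBS carry no number.

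The number of members called against DPBS moved with DESeq2 to 2 for LSL in Lung4 (main 4), 1 for ALT and 2 for Aeg-S/L in IL33KO1 (both 0), 1 for ALT+Tra in H1437-1 (0), 2 for Aeg-S/L+Tra in H1437-2 (1) and 1 for aegl KO ALT in H292-1 (0). With no filter it was 2 for ALT in Lung1 (1), 1 for Aeg-L in Lung2 (0), 2 for ALT and 2 for Aeg-S/L in IL33KO1 (0), 2 for ALT+Tra in H1437-1 (0), 4 for Aeg-S/L+Tra in H1437-2 (1) and 3 for aegl KO ALT in H292-1 (0). Against the stimulus it was 2 for Aeg-S/L+Tra in H1437-2 with no filter (1), and in Lung3 1 for aegs KO ALT (DESeq2, no filter) and 1 for aegl KO ALT (DESeq2, its size factors, no filter), where the main count was 0. Between experiments, no filter gave 1 for Aeg-S/L, IL33KO1 minus Lung2 (0), and 2 for LSL, IL33KO2 minus Lung4 (1).

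Without single libraries the counts ran as follows. Against DPBS they were 1 to 2 for ALT in Lung1, 0 to 1 for WT ALT in Lung3, 2 to 4 for LSL in Lung4, 0 to 1 for ALT and 0 to 3 for Aeg-S/L in IL33KO1, 1 to 2 for ALT in H1437-1, 0 to 3 for Aeg-S and 1 to 2 for Aeg-S/L in H1437-2, 1 to 2 for BAPTA-AM in H1437-3, and 1 for WT ALT in H292-1. Against the stimulus they were 1 to 2 for ALT+Tra in H1437-1, 0 to 1 for each knockout extract in Lung3 and 1 to 3 for aegs KO ALT in H292-1. Between experiments they were 0 to 1 for ALT and Aeg-S/L (IL33KO1), 2 to 3 for BAPTA-AM, 0 to 1 for Lysenin, 1 to 3 for PlyA2EryB and 1 to 3 for LSL. The causes were not tested. With 2 libraries in most groups, a lone library left in a group is assumed to vary like the other groups. The number of all genes called moved by over 1.5 times in 131 of 282 such fits, 15 of 48 with DESeq2, 20 of 58 with no filter and 2 of 44 with the block.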
